A study of Mus musculus with 27 samples.

Results

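Pax, Sox, Lhx, Dlx, Irx, Nkx and Six-family genes encode transcription factors that set the fate of cells in the embryo. They were taken as the protein-coding genes on the autosomes and the X chromosome of the GRCm38 gene table whose symbol is 1 of these 7 stems directly followed by a digit. This gave 68 of 21627 genes: 19 Sox, 14 Nkx, 9 Pax, 8 Lhx, 6 Dlx, 6 Irx and 6 Six-family genes. DNA methylation was measured by reduced representation bisulfite sequencing (RRBS), which reads the CpG-rich fragments left by MspI, an enzyme that cuts at CCGG. The cells were hepatocytes, the parenchymal cells of the liver, from female mice of 12 weeks. They came from 9 inbred strains, with 3 samples numbered as biological replicates in each. C57BL/6J, A/J, DBA/2J and 129S1/SvImJ are classical laboratory strains, NZO/HlLtJ and NOD/ShiLtJ are models of obesity and of autoimmune diabetes, and WSB/EiJ, PWK/PhJ and CAST/EiJ derive from wild mice. The labels give no treatment and no genetic change, and the strain is the only condition that they give as different between the groups.

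Pax proteins bind DNA through a paired domain and Sox proteins through an HMG box, whereas Lhx, Dlx, Irx, Nkx and Six-family proteins carry a homeodomain. In tissues where they are silent, many of these genes are known to be held by Polycomb complexes over long CpG-rich stretches. Some of these complexes place methyl groups on histone H3 there. Such stretches usually lack DNA methylation, whereas the bodies of genes that are transcribed usually carry it. Neither histone marks nor RNA were analysed here.

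Each library listed between 2904787 and 3156965 cytosine positions, each with a percent methylation. The mean over the 1692387 positions listed in all 27 samples lay between 27.2% and 28.6%. As no read counts are given, the depth is unknown. A percentage is a mean over the cells of a sample, so that fewer methylated cells and a lower level per cell cannot be told apart. Among hepatocyte genes with a measured end, Ass1, an enzyme of the urea cycle, had 0.51% at its start-side end and 25.1% at its far end. Of 8 hepatocyte genes with a measured end 6 had an end under 10%. Apob had 11.3% at its start and Fga 18.6% at its far end. Immune genes could not be read at a known start: the measured ends were the far end of Clec4f, of Kupffer cells, with 90.4% and 1 end of Csf1r, of macrophages, with 93.2%. Genes of other liver cells varied. Kdr, of endothelium, had 1.56% at its start and 69.4% at its far end, and Krt19, of bile ducts, had 6.03% and 91.4% at its ends. The starts of Epcam and Krt7, of bile ducts, had 17.0% and 24.3%, and those of Lrat and Des, of stellate cells, 3.12% and 10.5%. The far end of Epcam had 87.2%, and 1 end of Pdgfrb, of stellate cells, had 37.5%. The levels of hepatocyte genes and of genes of other liver cells thus overlapped at these ends. The mitochondrial chromosome is named M in the files of C57BL/6J and MT elsewhere, and any difference in processing behind this cannot be told apart from the strain.

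The promoters below show the range of sequence and level among these genes. They are RefSeq sequences of GRCm38.p6, from 250 bases before to 50 bases after a transcript start, written 5′ to 3′ on the strand of the gene, with every CpG in capitals. A promoter that RefSeq gives can lie inside the span of the gene table. Sox13, a SoxD factor (chr1:133424163-133424462, minus strand), has 40 CpGs and the lowest level at an end among these genes. Six2, which keeps kidney progenitors undifferentiated (chr17:85688205-85688504, minus strand), has 37 CpGs. Sox30, a factor of spermatid development (chr11:45980060-45980359, plus strand), has 28 CpGs at an intermediate level. Sox15, the single SoxG factor (chr11:69654787-69655086, plus strand), has 5 CpGs and is methylated.
Sox13: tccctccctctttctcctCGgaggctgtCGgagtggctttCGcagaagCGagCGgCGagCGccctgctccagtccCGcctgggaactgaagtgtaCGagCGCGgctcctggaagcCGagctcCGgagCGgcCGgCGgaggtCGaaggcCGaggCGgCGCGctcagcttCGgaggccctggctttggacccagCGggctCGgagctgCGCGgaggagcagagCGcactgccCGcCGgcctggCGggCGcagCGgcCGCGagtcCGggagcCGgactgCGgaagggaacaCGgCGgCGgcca
Six2: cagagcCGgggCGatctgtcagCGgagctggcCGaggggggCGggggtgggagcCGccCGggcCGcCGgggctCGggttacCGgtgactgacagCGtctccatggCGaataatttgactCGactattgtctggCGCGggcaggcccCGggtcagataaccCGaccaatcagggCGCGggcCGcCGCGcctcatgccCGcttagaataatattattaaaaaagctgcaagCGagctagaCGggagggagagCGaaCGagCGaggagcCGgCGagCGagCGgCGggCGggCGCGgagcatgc
Sox30: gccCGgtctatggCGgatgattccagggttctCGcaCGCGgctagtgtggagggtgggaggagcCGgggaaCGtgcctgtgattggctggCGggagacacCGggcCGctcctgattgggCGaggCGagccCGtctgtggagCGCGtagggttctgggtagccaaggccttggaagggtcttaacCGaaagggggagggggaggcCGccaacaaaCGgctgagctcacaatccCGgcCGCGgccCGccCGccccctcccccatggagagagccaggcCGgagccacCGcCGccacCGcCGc
Sox15: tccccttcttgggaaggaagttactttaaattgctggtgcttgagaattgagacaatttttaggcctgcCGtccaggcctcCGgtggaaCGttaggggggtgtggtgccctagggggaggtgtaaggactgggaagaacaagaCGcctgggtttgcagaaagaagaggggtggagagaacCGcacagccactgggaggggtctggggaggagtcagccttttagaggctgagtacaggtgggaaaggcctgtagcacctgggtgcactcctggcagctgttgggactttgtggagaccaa

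Over the 27 samples the shared positions in these windows averaged 0.38% at Sox13 (48 positions), 2.11% at Six2 (40 positions), 20.9% at Sox30 (37 positions) and 64.0% at Sox15 (3 positions). At Sox30 the strain means ran from 17.7% ± 1.8 (SD, n = 3) in 129S1/SvImJ to 26.8% ± 1.2 in PWK/PhJ. RefSeq promoters were found for 48 of the 68 genes, 61 in all. They held a median of 17 CpGs, against 13 in the 21044 promoters of all protein-coding genes, and 65.6% of them held 15 or more (47.3% of all). The MspI site CCGG, searched as these 4 letters, which read the same on both strands, was found in 82.0% of them and in 62.8% of all promoters. Of the 43 promoters with at least 3 shared positions, 39 lay under 10%, or 90.7% (91.9% of 10026 promoters of all genes). Their median was 2.33%, against 0.56%. The 4 above 20% were those of Sox30 and Sox15 and 2 promoters inside the 569905 bp span of Sox6, at 86.2% and 90.7%. A like share of promoters was thus low in both sets, with a higher median in the developmental genes.

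Within the gene span plus 2 kb on either side, 14601 positions of these genes were listed in all 27 samples, 54.4% of the 26817 listed in any (32.3% over the genome). The mean over samples was under 10% at 84.0% of them and over 80% at 5.34%. Over all shared positions the shares were 64.7% and 23.5%. Pax4, a factor of pancreatic islets, had no shared position. A gene end was read as the mean of the shared positions within 1000 bp of it, and a body as the mean of those inside the span and over 1000 bp from both ends, with at least 5 positions. Of the 68 genes, 64 had at least 1 measured end (91 ends) and 60 a measured body. Lhx3, Lhx4, Pax4 and Pax5 had no measured end.

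The ends and the bodies of these genes were both low. The median end had 3.77% and the median body 5.70%. For all protein-coding genes the median of 15880 ends was 1.31%, and that of 11277 bodies was 75.7%. These medians move with the window: with 2000 bp the ends had 3.99% against 3.23% over all genes and the bodies 9.88% against 83.7%, and with 500 bp the ends had 3.13% against 0.67% and the bodies 4.59% against 47.7%. Thus 39 of the 60 bodies (65.0%) lay under 10%, against 11.4% of all bodies, and 6 of the 60 lay over 50%, against 66.4% of all bodies. At the ends, 74 of 91 lay under 10%, against 11911 of 15880 for all genes. The median at the 45 ends known to be on the start side was 3.26%, against 0.78% at 10275 such ends of all genes. At the 18 ends known to be on the far side 12 lay under 10% (66.7%), against 27.8% of 2339 ends of all genes, with medians of 5.05% and 75.6%. Gene length was not matched in these comparisons, and the body or far end of a short gene lies near its start. The span was 2065 bp at Sox14 and 953863 bp at Sox5. Between 1500 and 2000 bp into genes with a known strand, the median was 3.52% in 29 of these genes and 8.31% in 1839 others. No test was made of these lists.

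**Figure D1:**
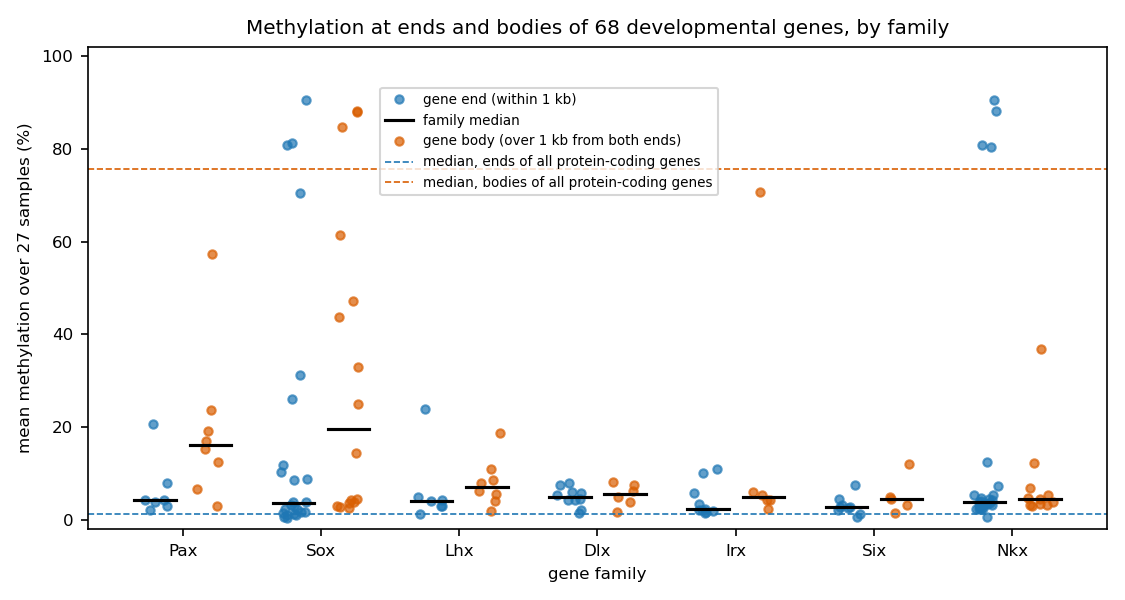
Mean methylation over 27 samples (%, vertical axis) of each measured gene end (blue, 91 ends) and gene body (orange, 60 bodies) by gene family, with family medians as black bars and medians of all protein-coding genes as dashed lines. Family medians of bodies lie near those of the ends in the Dlx, Irx, Lhx, Nkx and Six-family genes, far under the dashed line at 75.7%, with single high bodies at Irx6 (70.8%) and Nkx2-6 (36.8%), and bodies spread widely in the Sox family.

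A list of 60 other developmental regulators, among them Tbx, Gata, Msx and Neurog genes, had much the same values: a median of 3.97% at 87 ends and of 6.02% at 52 bodies, 37 of them under 10%. The 29 genes of Polycomb subunits had a median of 0.57% at ends and 42.8% at 19 bodies. In 16 hepatocyte transcription regulators the medians were 0.83% and 20.6%. The level at the ends was lower in both of these lists than in the 68 genes, and the level in the bodies higher.

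The families were further apart in their bodies than at their ends, where their medians ran from 2.27% (Irx) to 5.00% (Dlx). The median body was 4.48% in Six-family genes, 4.57% in Nkx, 4.86% in Irx, 5.56% in Dlx and 7.04% in Lhx genes, and 16.2% in Pax and 19.7% in Sox genes. Length was not matched between families, and the longest spans were those of Sox5 (953863 bp), Sox6 (569905 bp) and Pax5 (185947 bp). Among Dlx genes, which pattern the jaws, forebrain and skin, all 6 bodies lay under 10%, from 1.69% at Dlx5 to 8.17% at Dlx4. Among Six-family genes, which act in eye, muscle and kidney, the highest body was that of Six4 with 12.0%. Of the 11 measured bodies of Nkx genes 9 lay under 10%, and the highest was that of Nkx2-6, a heart and pharynx factor, with 36.8%. Irx6 stood apart among the Irx genes, with 70.8% over 13 positions of its body, while the other 5 lay between 2.37% (Irx2) and 5.92% (Irx3). The lowest and highest bodies of Lhx genes were those of Lhx8 with 1.92% and Lhx1, a factor of head and kidney formation, with 18.7%. In the Pax family only Pax1 and Pax6 had a body under 10%, and the highest was that of Pax8, a thyroid and kidney factor, with 57.4%.

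The Sox genes covered nearly the whole scale. Of 16 measured bodies 7 lay under 10%, among them Sox1 (2.46%), Sox21 (2.79%) and Sox11 (4.39%), which act in neural progenitors. Another 4 lay over 50%. The body of Sox7, an endothelial factor, had 88.2% over 10 positions. That of Sox10, a factor of neural crest and glia, had 88.1%. Sox5, which acts in cartilage and neurons, had 84.7% over 294 positions. Sox8, like Sox9 and Sox10 a SoxE factor, had 61.5%. Each of these genes had an end at 10.2% or less, so in all 4 a methylated body stood beside a low end.

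Members known from other cells of the liver showed no common level. Sox9, a marker of bile duct cells, had 1.03% at its lower-coordinate end (range over 27 samples 0.60% to 1.68%) and 43.8% in its body. The endothelial factor Sox17 had 3.04% at its only measured end, the related Sox18 had 3.90% and 11.9% at its ends, and the body of Sox17 had 2.98%, against 88.2% at Sox7. Lhx2, known from stellate cells, had 1.22% at its start and 6.24% in its body. Pax5, the B lymphocyte factor, had no measured end and a body of 23.6%. Among broadly expressed members the start of Sox4 had 1.04%, that of Sox5 1.30%, that of Sox6 1.52%, that of Sox12 0.66% and that of Sox13 0.45%. The median of all start-side ends was 0.78%. The bodies of these 5 genes ran from 3.86% at Sox4 to 84.7% at Sox5.

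Each gene was next read by the less methylated of its measured ends, and these levels are given from the lowest to the highest gene of a family. They ran from 2.19% (Pax3) to 20.7% (Pax8), from 0.45% (Sox13) to 80.8% (Sox30), from 1.22% (Lhx2) to 4.98% (Lhx1) and from 1.53% (Dlx5) to 6.01% (Dlx3). In the remaining families they ran from 1.48% (Irx3) to 2.35% (Irx6), from 0.53% (Six5) to 3.26% (Six3) and from 0.64% (Nkx2-6) to 80.5% (Nkx6-3). Of the 64 genes, 58 had an end under 10%.

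Only 8 ends lay over 50%. Among them were the far ends of 4 genes: Sox8 with 90.5%, Nkx6-2 with 90.5%, Sox12 with 81.4% and Nkx2-2 with 80.9%. Their start-side ends had 8.64%, 3.25%, 0.66% and 3.08%. On the start side of the gene table, Sox30 had 80.8% over 10 positions and Sox15 70.5% over 12 positions. The RefSeq start of Sox30 lies farther inside the gene, and its promoter printed above had 20.9%. Nkx6-3, a factor of the stomach, had 80.5% at its only measured end. Of the 45 genes with a measured start side in the gene table, these 2 Sox genes alone lay above 50% there, and of the pair only Sox15 did so in its RefSeq promoter (64.0% over 3 positions).

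Sox3, a factor of the pituitary, was the only member on the X chromosome. Its ends had 31.2% and 26.0%, with samples between 21.6% and 41.4% and between 20.3% and 31.3%. The median of the 446 measured ends of X-linked genes was 24.5%. Intermediate levels away from the X were seen at the higher-coordinate end of Lhx5 (23.9%, samples 21.0% to 29.7%) and the start of Pax8 (20.7%, samples 7.68% to 36.7%).

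The low level went on far beyond the start. Among genes with a known strand, the median level between 0 and 250 bp into the gene was 2.07% for 29 developmental genes and 0.55% for 8353 others. Between 2000 and 3000 bp it was 5.27% (25 genes) against 59.1%. Between 5000 and 7500 bp it was 4.55% (19 genes) against 88.1%, and between 7500 and 10000 bp 5.03% (17 genes) against 89.3%. Upstream, between 2000 and 1500 bp before the start, it was 3.43% (9 genes) against 64.8%. The 2 curves crossed near 1000 to 1500 bp into the gene, where both medians were close to 3.1%. A bin was read where it lay within the gene span plus 2 kb, so a far bin can reach past the end of a short gene.

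**Figure D2:**
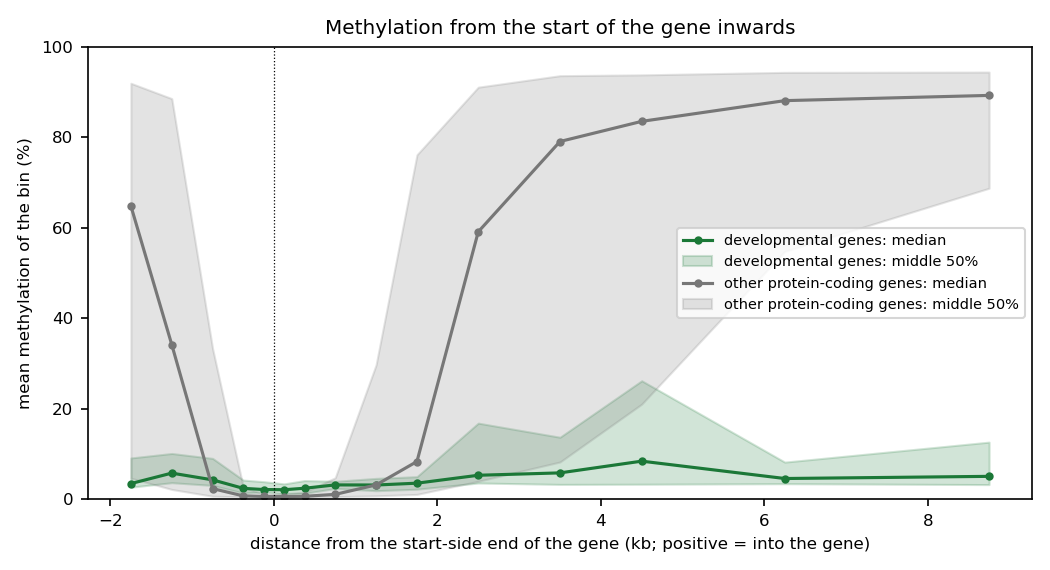
Median methylation (%, vertical axis) in bins by distance from the start-side end (kb, horizontal axis) for developmental genes (green) and other protein-coding genes (grey), with the middle 50% of genes shaded. The grey curve climbs to 89.3% at 7.5 to 10 kb, whereas the green curve stays at 8.39% or less in every bin.

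To measure this per gene, a low stretch was read around the shared position nearest to a gene end. It was the run of shared positions holding that position, each with a mean under 20% and at most 2000 bp from the next. The run could extend to both sides, also out of the gene, and the longer run of the 2 ends was kept. Of 61 genes with a position within 500 bp of an end, 56 had such a run. The median length over the 61 was 2521 bp, against 654 bp over 13828 protein-coding genes. Runs of at least 5000 bp were found at 7 of them (11.5%) and at 79 of all genes (0.571%). They were those of Lhx5 (7103 bp), a forebrain factor, Six3 (7039 bp), of eye and forebrain, Dlx6 (6579 bp), of the jaws, Irx1 (6496 bp), Irx4 (6428 bp), of the heart ventricle, Nkx3-2 (5273 bp), of axial skeleton and spleen, and Six2 (5070 bp). These long runs depend on the settings: with neighbours at most 1000 bp apart 0 of the 61 reached 5000 bp (longest 4658 bp, 15 of all genes), and with each position under 10% 1 did (27 of all genes). The 5 genes with no run were Dlx3, Lhx3, Nkx6-3, Sox3 and Sox15. A gene has no run when the single position nearest its end is at 20% or more, even if its mean is low. Dlx3 had 6.01% at its measured end, and Lhx3 had 5.48% in its body. The length depends on where RRBS has positions. The median was 1693 bp for the developmental genes and 631 bp for all genes with the shorter gaps, and 979 bp and 578 bp with the level of 10%.

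**Figure D3:**
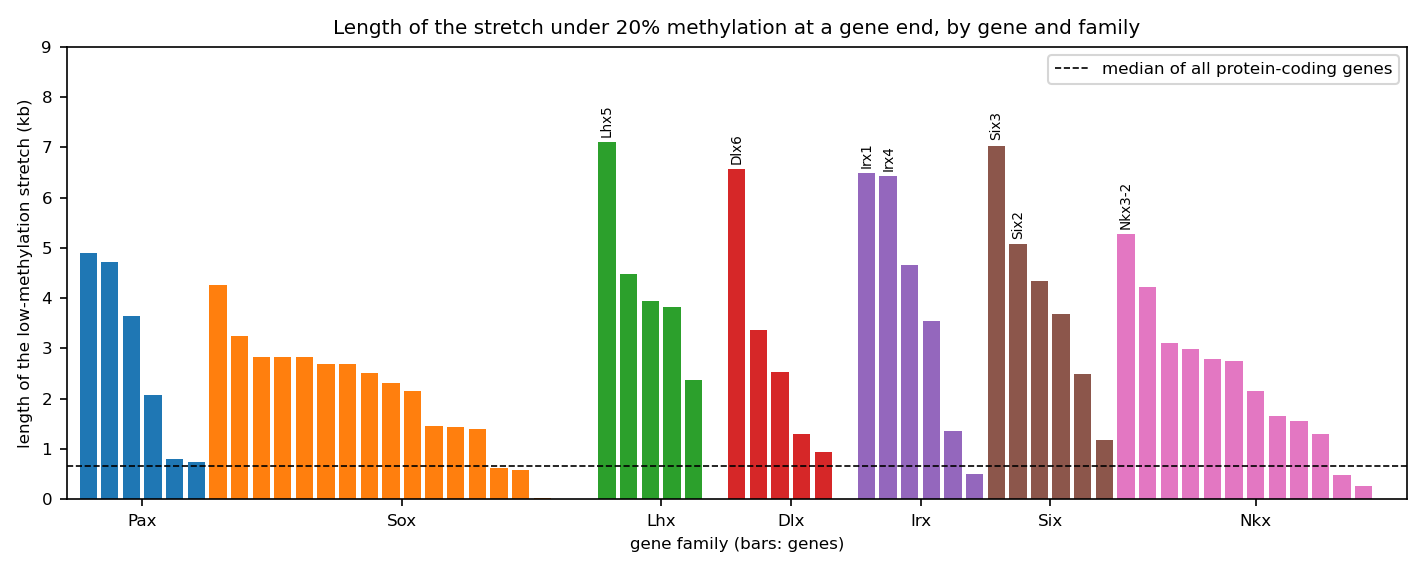
Length of the low-methylation stretch (kb, bars) of each of the 61 genes with a position near an end, grouped and coloured by family, with names over the bars of 5 kb or more and the median of all protein-coding genes dashed. In each of the 7 families most bars rise above the dashed line at 654 bp, and bars of 5 kb or more occur among Lhx, Dlx, Irx, Nkx and Six-family genes.

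The residual level of the low ends differed in small steps between strains. Over the 74 ends under 10%, PWK/PhJ had the highest mean with 4.38% ± 0.28 (SD, n = 3), followed by A/J with 4.14% ± 0.24. It lay between 3.38% and 3.60% in NOD/ShiLtJ, DBA/2J, CAST/EiJ, NZO/HlLtJ and 129S1/SvImJ. The CAST/EiJ samples lay just below those of NOD/ShiLtJ, and all other pairs of these 5 strains overlapped. It was lowest in C57BL/6J, at 2.89% ± 0.14, and WSB/EiJ, at 2.84% ± 0.18. The 11837 low ends of other genes had 1.99% ± 0.05 in PWK/PhJ, 1.78% ± 0.11 in A/J, 1.42% ± 0.17 in WSB/EiJ and 1.41% ± 0.04 in C57BL/6J. By strain mean PWK/PhJ was thus highest and WSB/EiJ and C57BL/6J lowest in both sets. Among the other genes the WSB/EiJ samples ran from 1.31% to 1.62%, a span that holds all samples of DBA/2J, NOD/ShiLtJ and NZO/HlLtJ. The mean over the 60 bodies was 17.3% ± 0.2 in PWK/PhJ, 17.2% ± 0.1 in A/J and 14.6% ± 0.1 in WSB/EiJ, the lowest. Over the bodies of other genes these strains had 63.2% ± 0.2, 63.0% ± 0.1 and 61.5% ± 0.2, and C57BL/6J was lowest with 61.4% ± 0.2. The samples of WSB/EiJ also had the longest low stretches when these were read sample by sample. Their medians over the genes were 1439, 1497 and 1636 bp, above all other 24 samples, which ran from 652 to 1360 bp. WSB/EiJ also stood near the top over all protein-coding genes, with medians of 599, 602 and 604 bp. There the other samples ran from 523.5 to 607 bp, and only NZO/HlLtJ replicate 1 lay above the WSB/EiJ samples.

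**Figure D4:**
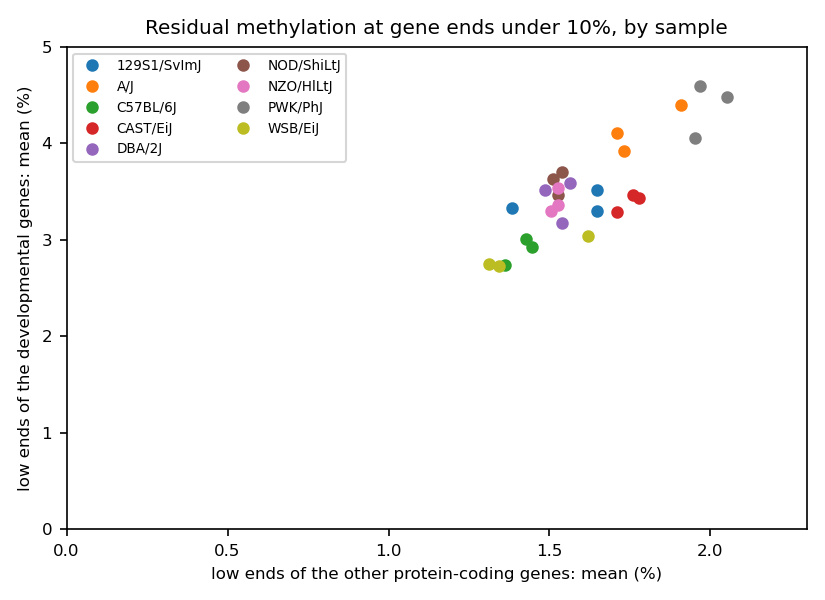
Mean methylation (%) of the 74 ends of developmental genes under 10% (vertical axis) against that of the 11837 such ends of other protein-coding genes (horizontal axis), with 1 point per sample coloured by strain. The PWK/PhJ and A/J samples have the highest values on the vertical axis, and the C57BL/6J and WSB/EiJ samples the lowest.

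Differences among strains were tested by limma's moderated F test over all features of a kind, with Benjamini-Hochberg adjustment. A gene end or body was called different when the adjusted p was under 0.05 and its strain means spanned at least 10 percentage points. At the ends 1 of 91 was called (7.42% of all 15880 ends). In the bodies 3 of 60 were called (13.6% of all 11277 bodies). Without the minimum range 35 of 91 ends passed (20.5% of all ends) and 37 of 60 bodies (36.1% of all bodies), with median ranges of 3.06 and 2.91 points. Of the 35 ends, PWK/PhJ was the highest strain at 20 and A/J at 9, and WSB/EiJ the lowest at 18 and C57BL/6J at 11. Of the 37 bodies, A/J was the highest at 15 and PWK/PhJ at 14, and WSB/EiJ the lowest at 21. Most ends and bodies that passed the test alone thus differed by a few points. The like counts of highest and lowest strains over all genes were not taken. Over all shared positions PWK/PhJ samples had 28.5% to 28.6% and A/J samples 28.3% to 28.4%. Those of WSB/EiJ and C57BL/6J had 27.2% to 27.5%, so the same strains were high and low there.

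Inside genes, tiles of 1 kb with at least 5 shared positions were called different when the strain means spanned 25 points or more and the adjusted p was under 0.05. This held for 11 of 438 tiles (5.61% of all 63592 tiles). Low tiles rarely reach such a range: 304 of the 438 (69.4%) had a mean under 10%, against 37.7% of all tiles, and limma called 0 of the 304, against 72 of all 24005 low tiles. Their widest range was 13.9 points, 62 had an adjusted p under 0.05 and 124 an unadjusted p under 0.05. All 11 called tiles were among the 43 tiles, in 24 genes, with a mean between 20% and 80%. This is 25.6% of them, close to the 27.7% called among all tiles of that level. Single positions were called at the same threshold at 120 of 6980 (4.97% of all positions tested), in 31 of 67 genes, and 47 of the 120 lay inside a called tile. By family the share of tested positions called ran from 1.06% in Irx to 3.03% in Six-family genes. Of the 16 called positions of Six-family genes 14 lay in Six4.

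Each strain was also set against the mean of the other 8, with 25 points and an adjusted p under 0.05 as the threshold. The called tiles of these genes were 6 of 438 for WSB/EiJ (background over all tiles 0.390%), 2 for DBA/2J (0.230%), and 1 each for A/J (0.294%), 129S1/SvImJ (0.193%), CAST/EiJ (1.11%), C57BL/6J (0.264%), NOD/ShiLtJ (0.220%) and NZO/HlLtJ (0.217%). None was called for PWK/PhJ (1.13%), where limma gave 0 tiles with both conditions and 135 with an unadjusted p under 0.05. That last count was 126 for A/J, 124 for WSB/EiJ and 108 for C57BL/6J, and it was not taken over all tiles. Of the 6 tiles of WSB/EiJ 5 were lower (background of lower tiles 0.261%): those of Nkx2-6, Dlx3, Pax7 and both of Nkx2-2. The remaining tile, in Sox5, was higher. This Sox5 tile, on which the strains fall into 4 high and 5 low, is also the tile of A/J, 129S1/SvImJ, C57BL/6J, NOD/ShiLtJ and NZO/HlLtJ and 1 of the 2 of DBA/2J, so it enters 7 of the 9 contrasts. With a minimum of 10 points the share for WSB/EiJ was near that of all tiles, 12 of 438 (2.74%) against 2.64%. The 9 contrasts share samples and are given side by side only.

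Nkx2-6 had the largest difference among bodies. Its body (chr14:69172803-69174539, 13 positions) had 12.6%, 11.1% and 8.5% in the WSB/EiJ samples and 22.8% to 26.9% in those of CAST/EiJ. The NOD/ShiLtJ samples, with the highest mean, had 47.0%, 48.1% and 50.8%, and the other 6 strains had samples between 31.8% and 52.1%. No WSB/EiJ sample reached any other sample. The range of strain means was 37.9 points (limma adjusted p = 6.59e-10). The difference lay in 1 tile (chr14:69173001-69174000, 10 positions within 161 bp), where WSB/EiJ had 13.6% ± 2.5 and NOD/ShiLtJ 63.3% ± 2.5 (adjusted p = 1.85e-09). WSB/EiJ was the lowest strain at all 10 positions. With the body taken from 500 bp inside the ends, over 56 positions, its range was 8.56 points and it was not called. The higher-coordinate end of the gene had 0.64%, with no sample above 1.59%.

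Nkx2-2, a factor of ventral spinal cord and pancreatic islets, was called in 2 adjoining tiles in the same direction. In the first (chr2:147180001-147181000, 6 positions) the WSB/EiJ samples had 15.7%, 9.2% and 11.1%, those of NOD/ShiLtJ 29.1%, 32.4% and 29.3%, and those of DBA/2J, the highest, 61.1% ± 9.6 on average. All samples of the other 6 strains lay above those of WSB/EiJ, and the highest of them, of PWK/PhJ, had 52.8%. WSB/EiJ was the lowest strain at 5 of the 6 positions, and the range was 49.1 points (adjusted p = 5.96e-06). In the second (chr2:147181001-147182000, 5 positions) WSB/EiJ had 4.1%, 4.7% and 0.0%, below every other sample, and DBA/2J had 41.3% to 59.0% (range 47.2 points, adjusted p = 4.61e-06). The 129S1/SvImJ samples of this tile were far apart, at 44.1%, 36.0% and 14.0%. The tiles begin 14434 and 13434 bp from the start side of the gene, whose start-side end had 3.08%.

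In Dlx3, a factor of skin and placenta, a tile 2884 bp from the lower-coordinate end (chr11:95123001-95124000, 6 positions) ranged over 45.2 points (adjusted p = 7.28e-05). WSB/EiJ had 29.3%, 23.0% and 21.0%, and 129S1/SvImJ was next with 30.1%, 35.4% and 35.0%. NZO/HlLtJ had 72.2%, 67.6% and 69.2%, and the NOD/ShiLtJ samples spread from 52.4% to 78.1%. WSB/EiJ lay below all other samples, but by less than 1 point.

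Pax7, a factor of muscle stem cells, held 2 called tiles. In the first, 36530 bp from its start side (chr4:139796001-139797000, 10 positions), 3 strains were low: DBA/2J with 22.4%, 23.9% and 39.7%, WSB/EiJ with 31.0%, 41.2% and 38.5%, and PWK/PhJ with 35.1%, 40.7% and 44.2%. The CAST/EiJ samples had 67.8%, 53.0% and 64.3%, and those of the remaining 5 strains lay between 66.9% and 83.5%. The 9 samples of the low strains overlap each other and none of the other 18. The strain means ran from 28.7% ± 9.6 in DBA/2J to 78.7% ± 4.2 in NOD/ShiLtJ (adjusted p = 8.58e-08). In the second tile (chr4:139751001-139752000, 6 positions) only CAST/EiJ was called against the others, with 51.4%, 47.2% and 69.3%, while NZO/HlLtJ had 68.3%, 62.5% and 79.9% (range of strain means 30.4 points, adjusted p = 0.0251). Without CAST/EiJ replicate 1 or 4 the adjusted p of the second tile was 0.109 or 0.124, so that call rests on these samples.

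The largest range of all was in Sox5 (chr6:144457001-144458000, 6 positions within 201 bp), inside the gene and 324287 bp from its start side. Here the strains fell on 2 levels. The samples of A/J (76.7%, 83.9% and 82.3%), 129S1/SvImJ (69.6%, 75.3% and 73.2%), C57BL/6J (66.8%, 79.2% and 88.4%) and WSB/EiJ (83.1%, 76.2% and 75.7%) were high. Those of PWK/PhJ (31.1%, 21.7% and 30.6%), CAST/EiJ (27.7%, 13.5% and 29.2%), NZO/HlLtJ (17.5%, 6.7% and 10.6%), NOD/ShiLtJ (8.3%, 4.8% and 13.7%) and DBA/2J (5.8%, 9.3% and 6.6%) were low. No sample lay between 31.1% and 66.8%. The range of strain means was 73.7 points (adjusted p = 4.16e-10). A/J was above DBA/2J at all 6 positions, with both strains picked from these same values. The body of Sox5 as a whole, of 294 positions, kept to strain means of 83.1% to 86.3%.

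**Figure D5:**
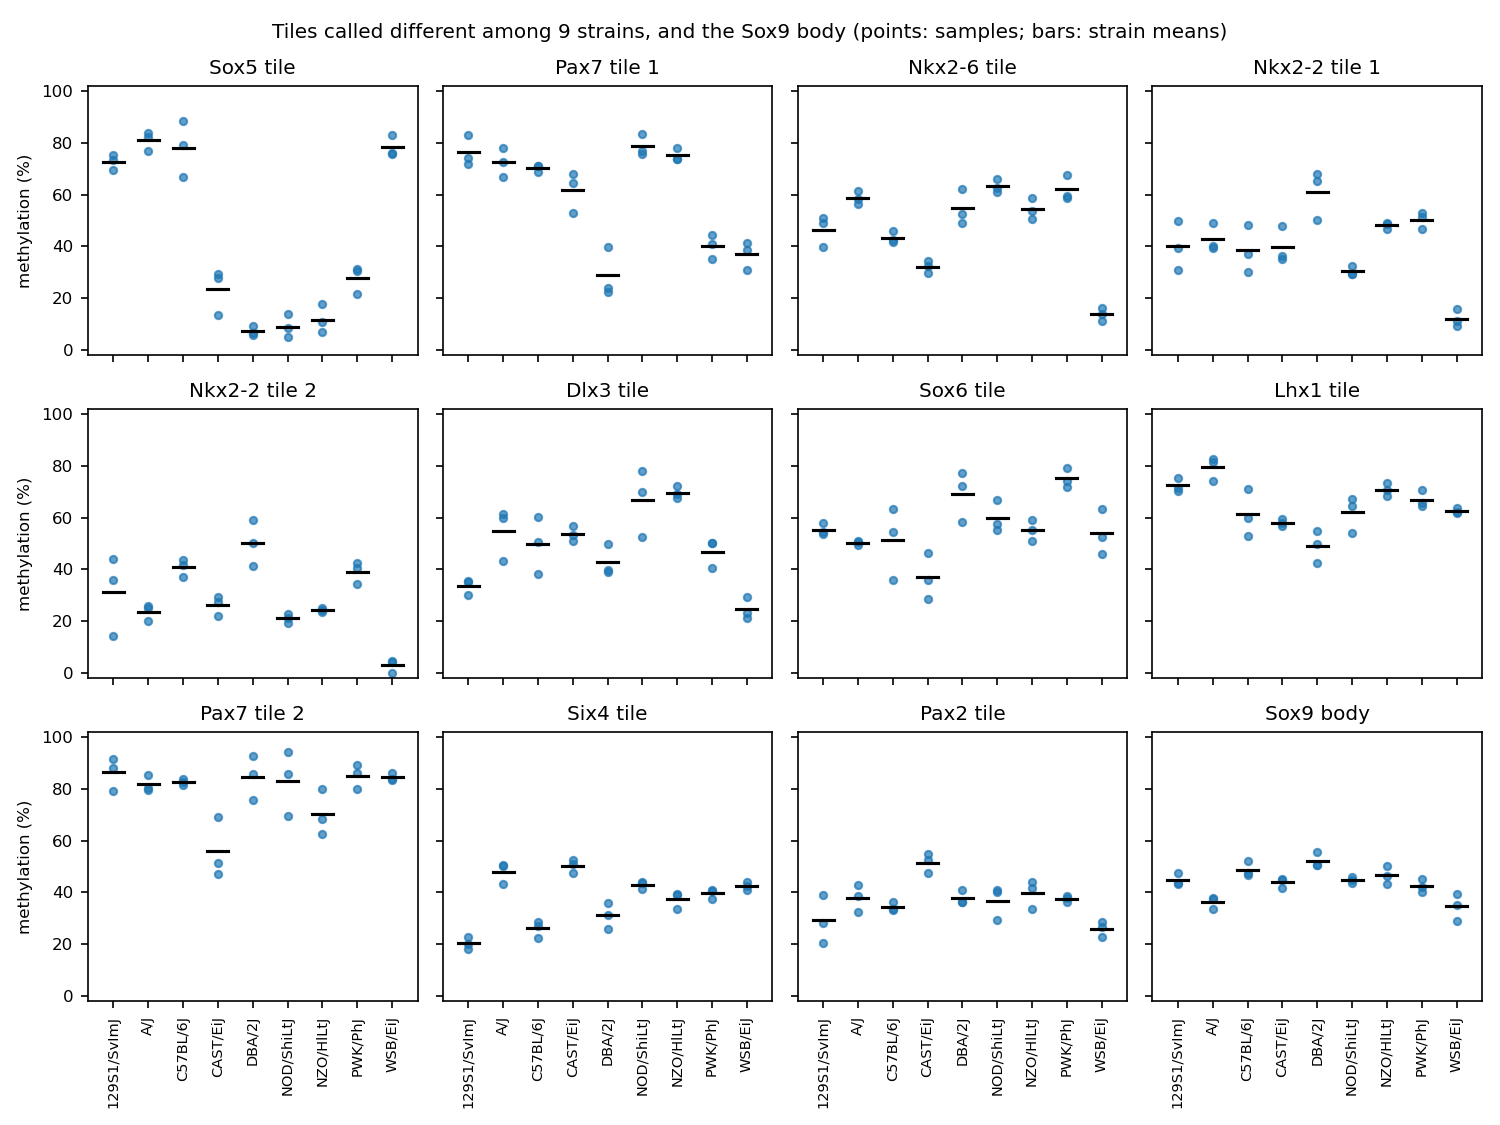
Methylation (%, vertical axis) in each of 27 samples (points) by strain, with strain means as bars, at the 11 called tiles and in the body of Sox9. WSB/EiJ has the lowest mean at Nkx2-6, Nkx2-2, Dlx3, Pax2 and Sox9, and the Sox5 tile splits into 4 high and 5 low strains.

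Among the other Sox genes, the body of Sox9 (chr11:112783211-112786756, 34 positions) had 39.6%, 35.1% and 29.1% in WSB/EiJ and 37.5%, 37.7% and 33.4% in A/J, which overlap. DBA/2J was highest with 50.7%, 50.7% and 55.5% (range 17.7 points, adjusted p = 9.98e-05), and the samples of the other 6 strains lay between 40.2% and 52.0%. Its end showed no such range: the strain means there ran from 0.80% to 1.31%. The body of Sox8, a factor of neural crest and testis, ran from 55.4% ± 1.1 in NZO/HlLtJ to 67.4% ± 5.0 in CAST/EiJ (27 positions, range 12.0 points, adjusted p = 0.0115), and was not called when taken from 2000 bp inside the ends (adjusted p = 0.0555). In Sox6, of cartilage and red cell development, a tile 372776 bp from the start side (chr7:115667001-115668000, 6 positions) had 28.5% to 46.3% in CAST/EiJ and 72.0% to 79.2% in PWK/PhJ (range 38.3 points, adjusted p = 2.22e-03). C57BL/6J spread there from 35.7% to 63.5%.

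The only called end was the methylated start side of Sox15 (12 positions between chr11:69654715-69655501). CAST/EiJ had 82.2% ± 2.2, with all 3 samples above the other 24. By position it was the highest strain, alone or tied, at only 4 of the 12. At chr11:69655486 its mean was 100% and that of C57BL/6J 16.7%. The lowest strain mean was 63.1% ± 4.9 in C57BL/6J, and A/J spread from 54.7% to 74.3% (range 19.0 points, adjusted p = 0.0247). This call was lost without CAST/EiJ replicate 1 (adjusted p = 0.0878) or 4 (0.0682), with all C57BL/6J samples left out (0.0527) and with both strands of a CpG averaged (0.0821), so it rests on few samples. The CpGs in capitals in the printed Sox15 promoter include 3 of these shared positions, on either strand.

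The remaining called tiles had ranges between 25.6 and 30.5 points. In Six4, a muscle and kidney factor, a tile 3031 bp from the start side (chr12:73110001-73111000, 19 positions) had 22.9%, 19.8% and 18.3% in 129S1/SvImJ and 52.5%, 50.8% and 47.4% in CAST/EiJ. C57BL/6J followed with 28.7%, 27.2% and 22.4% (range 29.9 points, adjusted p = 1.23e-07). Of the 56 tested positions of Six4 14 were called (4.97% of all positions tested), all between chr12:73110797 and 73111069. Positions this near can share reads and are not independent. In Lhx1 a tile near the far side (chr11:84519001-84520000, 14 positions) had 54.9%, 49.8% and 42.3% in DBA/2J and 82.5%, 81.7% and 74.3% in A/J (range 30.5 points, adjusted p = 1.69e-04), but only 21.6 points over the 23 positions listed in at least 2 of 3 samples of each strain. In Pax2, of kidney and eye, a tile 1400 bp from the start (chr19:44748001-44749000, 13 positions) had 47.4%, 52.4% and 54.7% in CAST/EiJ and 26.5%, 22.7% and 28.7% in WSB/EiJ (range 25.6 points, adjusted p = 4.22e-03). The Pax2 tile was just inside the minimum of 25 points, and fell to 24.0 points without CAST/EiJ replicate 5 and 23.9 without WSB/EiJ replicate 3. Tiles of Sox9 (23.4 points) and Sox5 (23.1 points) passed the adjusted p but lay just outside.

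All 11 tiles and 3 bodies lay inside the spans of their genes, with no other protein-coding gene over them. In none of the 15 called regions did the samples of the highest and the lowest strain overlap. These strains were picked from the values that made the call, so this adds no support to it. A position is 1 strand of a CpG. With both strands averaged, 6 of the 11 tiles held under 5 CpGs and were not tested: those of Sox5, Dlx3 and Sox6, both of Nkx2-2 and the second of Pax7. The other 5 were called again. Whether a called position is changed by a sequence variant of a strain was not tested. Taking the positions of these genes that every C57BL/6J sample lists, 4.00% appeared in no CAST/EiJ sample and 4.51% in no PWK/PhJ sample, against 12.1% and 12.0% over the genome. For the other 6 strains the share was between 1.11% (A/J) and 1.98% (DBA/2J), against 3.73% to 5.48% over the genome.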

How the data were processed

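The authors deposited, for each of 27 samples, a list of positions with a percent methylation, per the file headers; coverage is not given, so no depth or counting error could be stated. The submitters' processing notes name Trim Galore 0.6.3, Bowtie2, Bismark 0.22 and the builds GRCm38 and mm10. Of 276286 shared positions in RefSeq promoters (GRCm38.p6), 99.998% fell on a base of a CpG. Both strands of a CpG count as positions.

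Only positions listed in all samples were used. The percentages of ends, bodies, 1 kb tiles and single positions (mean between 2.5 and 97.5%) were fitted as log2((percent + 5)/(100 - percent + 5)) with limma 3.58.1 in R 4.3.3, strain as a factor, all 27 samples in each fit and Benjamini-Hochberg adjustment over all features of a kind. The labels number biological replicates and name no animals, so p-values measure the spread between these samples. The members and the gene lists were chosen with earlier results of these data known. Strand came from RefSeq promoters (48 of 68 genes). Named genes are those with a called end, body or tile, the extremes of each family, the 5 longest stretches, the X-linked member and members known from other liver cells; the others were chosen after their values were seen. The fits were tested on simulated data. Python 3.11.15, numpy 2.4.6, pandas 2.3.3 and matplotlib 3.10.9 were used. Alternatives were other windows, offsets, minimum ranges and position minimums, averaged strands, positions listed in 2 of 3 samples, a replicate block, each sample left out, and, added after the data were seen, C57BL/6J left out, other windows for bodies, and the called regions under each choice of positions. Results of some genes are not reported here.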

Additional observations from a re-analysis of the deposited data

How the results depend on the processing

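Over 522 alternative values of the 15 called regions, minimum ranges aside, 509 kept the call, 13 lost it and 0 reversed. Most of these values came from leaving out 1 sample, often of a strain that was neither highest nor lowest. Under other windows or choices of positions 57 values were tested, of which 53 kept the call and 4 lost it. Only 5 of the 15 regions were tested and called under every such choice. A minimum of 3 positions left the positions of each region unchanged. Calls were lost at the Sox15 end, the Nkx2-6 and Sox8 bodies, the second Pax7 tile and the Pax2 and Lhx1 tiles. Another 7 values could not be had, as fewer than 5 positions remained: those of 6 tiles with the strands averaged and of the Nkx2-6 body from 2000 bp inside the ends. Shares in parentheses are of all features tested. Called ends, 1 in the report, were 35 with no minimum range (20.5%), 0 with a minimum of 25 points (2.23%), 0 with the strands averaged (6.54%), 0 without C57BL/6J (7.08%), 2 with a window of 500 bp (5.45%), 4 with 2000 bp (8.97%) and 2 with positions listed in 2 of 3 samples (7.13%). Called bodies, 3 in the report, were 37 with no minimum range (36.1%) and 1 with 25 points (2.53%). Called tiles, 11 in the report, were 106 with no minimum range (20.6%), 41 with 10 points (14.5%), 19 with at least 3 positions (6.17%) and 5 with the strands averaged (4.67%), which leaves fewer tiles to test. Called positions, 120 in the report, were 64 with an offset of 1 (2.97%). When any 1 sample was left out, the counts ran from 0 to 2 for ends, 3 to 5 for bodies, 10 to 12 for tiles and 96 to 128 for positions. The count of ends was 2 without 129S1/SvImJ replicate 2, NOD/ShiLtJ replicate 2 or PWK/PhJ replicate 3, and 0 without CAST/EiJ replicate 1 or 4. The count of bodies was 5 without DBA/2J replicate 2. The median end was 3.13% with a window of 500 bp (all genes 0.67%), 3.99% with 2000 bp (3.23%) and 4.14% with positions listed in 2 of 3 samples (1.72%). The median body was 4.59% with 500 bp (47.7%) and 9.88% with 2000 bp (83.7%). The median stretch, 2521 bp in the report against 654 bp over all genes, was 979 bp for a level under 10% (all genes 578 bp), 2904 bp under 30% (693.5 bp) and 1693 bp with gaps of 1000 bp (631 bp). Tiles that set 1 strain apart by 10 points were 4 in 129S1/SvImJ (1.60%), 10 in A/J (2.40%), 4 in C57BL/6J (2.27%), 9 in CAST/EiJ (5.18%), 7 in DBA/2J (1.45%), 5 in NOD/ShiLtJ (1.55%), 3 in NZO/HlLtJ (1.48%), 7 in PWK/PhJ (5.53%) and 12 in WSB/EiJ (2.64%). Apart from the ranges and minimums, which set the calls themselves, the cause was not tested.

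Replicate numbers are shared between strains. Over 76 pairs of same-numbered samples the correlation of deviations from the strain means ran from -0.0266 to 0.0272, and over 248 pairs of differently numbered samples from -0.0258 to 0.0294, so the numbers were not read as a pairing. Of the 27 samples 14 were nearest to a sample of their own number, a larger share than same-numbered pairs have among all pairs, which is a hint from the data and not the design. With a replicate block 0 ends, 3 bodies, 10 tiles and 84 positions were called. Under the block the adjusted p was 0.0976 at the Sox15 end and 0.0565 at the second Pax7 tile.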
